A study of Homo sapiens with 6 samples.

Results

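The genes described here build and control focal adhesions and the actin cytoskeleton. A list of 42 gene symbols was matched to the probe sets of the array, and a probe set counted as a member where the platform annotation gave it 1 of these symbols and no other. This gave 78 of the array's 22283 probe sets, for 37 of the 42 genes. RNA from HT1080 cells was hybridised to 6 arrays of 1 colour, 2 for each of 3 groups. HT1080 is a line established from a human fibrosarcoma. Every group carried the pGUS vector with GFP. The mock group (titled GUS) carried nothing else, the second group's vector also expressed an siRNA against the mRNA of MT1-MMP, and the third group's vector an siRNA against the mRNA of integrin alpha3. The labels do not say whether the cells were clones or pools, and do not name separate cultures for the 2 arrays of a group, so a p-value here reflects array-to-array spread, possibly technical. MMP14 encodes MT1-MMP, a collagenase of the cell surface, and integrin alpha3, the product of ITGA3, is part of a laminin receptor.

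Focal adhesions are the sites where integrins, bound to matrix outside the cell, hold actin filaments inside it. Talin and vinculin make the mechanical link, paxillin, zyxin and the kinase FAK (PTK2) form the signalling layer around it, and filamins and alpha-actinins crosslink the filaments. RhoA, through the kinases ROCK1 and ROCK2 and the formin DIAPH1, drives actin assembly and myosin contraction, while Rac1 and Cdc42 drive protrusion at the leading edge. Genes of contractile filaments such as ACTA2, TAGLN and CNN1 are classic targets of serum response factor (SRF), which binds the CArG box in their promoters.

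The upstream sequence is shown for ACTA2, the member with the lowest adjusted p of this gene set, and for TPM4, 1 of the members that hold a full CArG box. Both are from RefSeq on GRCh38.p14 and run from 250 bases before a transcription start to the base before it. ACTA2 lies on the minus strand, at chr10:88952774-88953023, and TPM4 on the plus strand, at chr19:16067288-16067537. The capitals in ACTA2 mark, from the 5′ end, GGAATG (the core of sites bound by TEAD factors) and both of its CArG boxes, each with 1 base outside the consensus. They begin 183, 121 and 71 bases before the start. The capitals in TPM4 mark a CArG box with no mismatch.
ACTA2: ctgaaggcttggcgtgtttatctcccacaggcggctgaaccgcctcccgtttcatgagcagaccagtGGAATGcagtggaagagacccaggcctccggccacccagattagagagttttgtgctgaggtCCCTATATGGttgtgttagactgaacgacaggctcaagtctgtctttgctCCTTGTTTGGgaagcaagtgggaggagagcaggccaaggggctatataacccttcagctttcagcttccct
TPM4: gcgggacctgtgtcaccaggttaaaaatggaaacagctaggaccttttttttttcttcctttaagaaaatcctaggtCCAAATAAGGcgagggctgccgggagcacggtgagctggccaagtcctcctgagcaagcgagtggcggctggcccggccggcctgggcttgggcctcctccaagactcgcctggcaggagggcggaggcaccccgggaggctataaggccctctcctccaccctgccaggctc

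A full CArG box also stood before a start of ACTN1 (minus strand, chr14:68977703-68977762), CNN2 (plus strand, chr19:1026494-1026553) and ROCK2 (minus strand, chr2:11345476-11345535). These 3 are given with 60 bases around the box so that they can be compared with ACTA2 and TPM4, and the capitals mark the box.
ACTN1: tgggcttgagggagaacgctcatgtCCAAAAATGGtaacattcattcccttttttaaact
CNN2: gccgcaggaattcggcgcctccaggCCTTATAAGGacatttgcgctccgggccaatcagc
ROCK2: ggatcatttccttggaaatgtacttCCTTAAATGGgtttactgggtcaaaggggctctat

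Promoter windows of 300 bases (250 before and 50 after a start) were given for 35 of the 42 genes, with 59 windows in all, some of them overlapping. The CArG box reads the same on both strands, and GGAATG was searched on both. A CArG box with no mismatch was in 5 member windows (8.47%), of ACTN1, CNN2, FLNA, ROCK2 and TPM4, and in 1.29% of all 35116 windows. With at most 1 mismatch it was in 14 member windows (23.7%) and in 18.9% of all. GGAATG was in 11 member windows (18.6%) and in 14.0% of all. TAGLN, MYL9, PARVA, CTTN, PTK2, RAC1 and SRC have no window here. The genes with a full box did not share 1 pattern on the arrays. On the brightest probe sets, the log2 fold change of the measured 4 lay between -0.12 and 0.09 under MT1-MMP siRNA against mock. Under alpha3 siRNA against mock it was 0.49 for TPM4 and between -0.12 and 0.10 for the others. Dimmer probe sets under MT1-MMP siRNA gave -0.46 for ROCK2, down to -0.39 for ACTN1 and 0.08 for TPM4.

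Of the 42 genes, BCAR1, CRK, LIMS1, FLNA and FLNC had no probe set under the rule and were not analysed here. LIMS1, part of the ILK complex, was named only on 2 probe sets that carry several symbols. The kinase SRC and the smooth muscle calponin CNN1 had only probe sets below the filter on dim signal, which asked for a mean above 47.5. SRC was between 3.8 and 53.1 on its 3 probe sets, and CNN1 between 4.2 and 32.9. The remaining 35 genes were tested through their brightest probe set, among 8045 genes in all, and 65 of the 78 member probe sets passed the filter. Signals are the intensities the authors deposited, and each log2 fold change is on the scale log2(signal + 32), which understates changes of dim genes.

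The arrays had median signals between 72.9 and 83.1, and arrays of a group correlated across genes at 0.952 to 0.965 (genes are not independent replicates). The median of the 35 members on an array lay between -0.08 and 0.08 on the log2 scale around the mock mean. Each siRNA group had the lowest mean signal of its target, with MMP14 at 1971 and 3064 in mock 812 and 717 under MT1-MMP siRNA and 999 and 1804 under alpha3 siRNA, and ITGA3 at 1139 and 1290 in mock, 1481 and 1634 under MT1-MMP siRNA and 148 and 347 under alpha3 siRNA. MMP14 was thus below both mock arrays under alpha3 siRNA too, at a log2 fold change of -0.86 (adjusted p = 0.851). Neither target passed the threshold under its own siRNA against mock (limma adjusted p = 0.139 and 0.136). Against the mock mean, the median of the 18 spiked controls was 2.3 and 1.29 times as bright on the arrays of MT1-MMP siRNA and 0.812 and 0.841 times on those of alpha3 siRNA. Their part in the differences below was not tested. The mesenchymal marker vimentin (VIM) was between 12271 and 17700 on all arrays, and of the epithelial markers KRT18 was between 1807 and 3220 and KRT8 between 431 and 1457, while CDH1 and EPCAM did not exceed 29.3 on any. In total RNA of whole cultures, fewer cells of a type and less RNA per cell cannot be told apart.

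Under MT1-MMP siRNA against mock, 0 of the 35 adhesion and actin genes passed the threshold of a Benjamini-Hochberg adjusted p under 0.05 in limma. The background over all 8045 genes was 0%, where 1160 had an unadjusted p under 0.05, and the lowest adjusted p among the members was 0.212. The highest log2 fold changes were those of PARVA (0.94, and 0.06 without mock replicate 1) and the smooth muscle actin ACTA2 (0.77), and the lowest those of the actin-binding adaptor LASP1 (-0.87) and paxillin (-0.67). The median of the members was 0.03, beside 0.00 over all genes tested, with 18 of 35 above 0. At an unadjusted p under 0.05 there were 4 members, which is 11.4% of them beside 14.4% of all genes. RHOA, TPM2 and ACTA2 were on the higher side (3 members, beside 6.76% of all genes) and LASP1 on the lower (1 member, beside 7.66%). The 2 groups were separated, with no overlap of arrays, for 16 members (45.7%), beside 49.9% of all genes; 9 were higher (beside 24.6%) and 7 lower (beside 25.3%). The count of 4 was 1 without MT1-MMP siRNA replicate 1 and 2 without mock replicate 1, where the shares of all genes were 6.84% and 7.69%.

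Under alpha3 siRNA against mock, again 0 of the 35 members passed in limma, beside 0.0249% of all genes, and the lowest adjusted p among them was 0.851. The members ran from moesin (MSN) at -2.65, a value set by 1 array, to transgelin (TAGLN) at 1.19. Their median was 0.01, beside -0.01 over all genes, with 18 of 35 above 0. At an unadjusted p under 0.05 there were 2 members, which is 5.71% of them beside 5.73% of all genes. Cortactin (CTTN) was on the lower side (1 member, beside 3.22%) and TAGLN on the higher (1 member, beside 2.51%). The count was 1 without mock replicate 1 and 4 without alpha3 siRNA replicate 2, where the shares of all genes were 6.51% and 10.5%. Separation without overlap was found for 17 members (48.6%), beside 34.4% of all genes; 9 were higher (beside 16.4%) and 8 lower (beside 18.0%). Without alpha3 siRNA replicate 1, MSN alone passed (adjusted p = 0.000713), in a fit where the lone remaining array is assumed to vary like the other groups.

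In MT1-MMP siRNA against alpha3 siRNA, 0 of the 35 members passed in limma, beside 1.39% of all genes. At an unadjusted p under 0.05 there were 8 members, which is 22.9% of them beside 23.4% of all genes. ACTA2, CAV1, ACTN4, RHOA and CTTN were higher under MT1-MMP siRNA (5 members, beside 11.7% of all genes), and LASP1, EZR and TPM4 were lower (3 members, beside 11.7%). Separation without overlap was found for 18 members (51.4%), beside 53.9% of all genes; 9 were higher (beside 28.0%) and 9 lower (beside 25.9%). The comparisons share their arrays, so they are not independent of each other. The lowest adjusted p was that of ACTA2, at 0.0543. The count of 8 was 3 without MT1-MMP siRNA replicate 1, where the share of all genes was 12.2%. Without alpha3 siRNA replicate 1, MSN passed here too (1 member). The median of the members was -0.05, beside 0.02 over all genes.

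**Figure D1:**
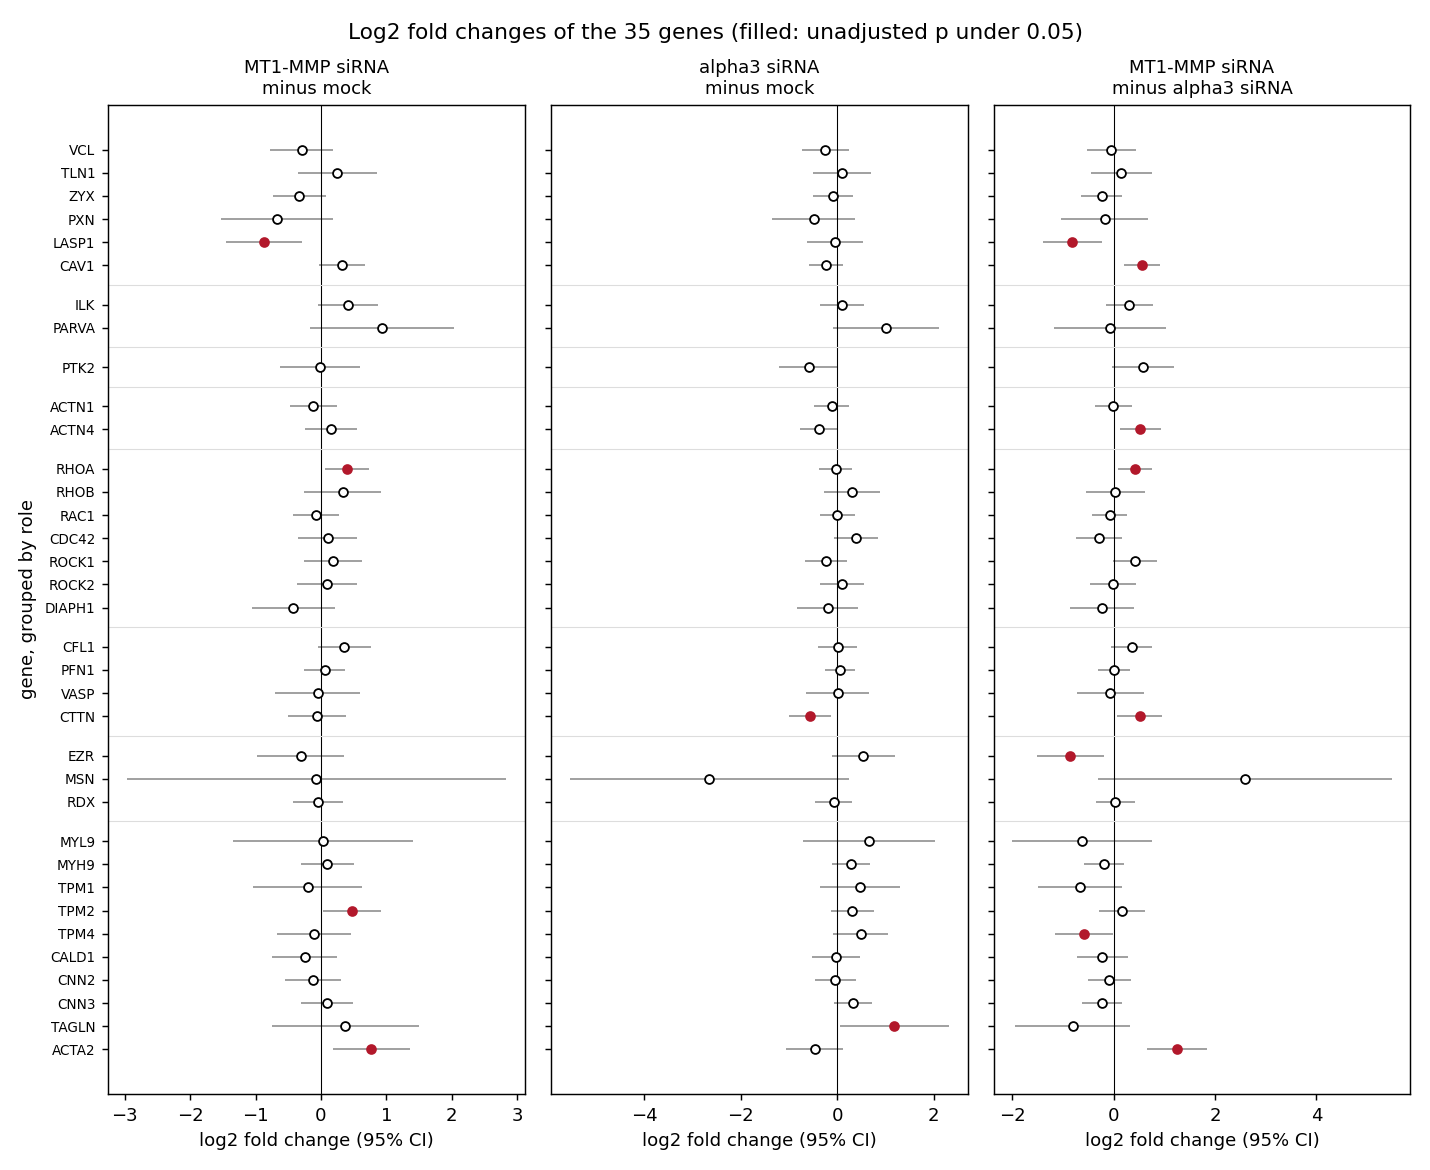
Log2 fold change (x axis, with its 95% confidence interval from limma) of each of the 35 genes (y axis, grouped by role) in the 3 comparisons; the x axes differ between panels, and filled points have an unadjusted p under 0.05. The filled points number 4 under MT1-MMP siRNA against mock, 2 under alpha3 siRNA against mock and 8 between the siRNAs, and the interval of MSN, from -5.55 to 0.24 under alpha3 siRNA against mock, is the widest of that panel.

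Of the 6 genes measured in the role group of adhesion plaque adaptors, in which CAV1 was also placed, 0 passed the threshold in limma against mock. On the brightest probe sets, LASP1 alone had an unadjusted p under 0.05 against mock. Below mock were 4 of the 6 under MT1-MMP siRNA and 5 under alpha3 siRNA, beside 49.7% and 52% of all genes, with medians of -0.31 and -0.16. The second median was -0.019 without alpha3 siRNA replicate 1. LASP1, which binds actin and zyxin, had signals of 2396 and 1855 in mock, 880 and 1466 under MT1-MMP siRNA, and 1957 and 2106 under alpha3 siRNA. Both MT1-MMP siRNA arrays lay below all 4 others, with a log2 fold change of -0.87 against mock (SE 0.25, limma adjusted p = 0.212) that was -0.52 without replicate 1 of that group. Against alpha3 siRNA it was -0.82 (adjusted p = 0.113), and -0.46 without the same array.

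Paxillin (PXN), a scaffold that binds vinculin and FAK, was at 1400 and 1064 in mock, 669 and 856 under MT1-MMP siRNA, and 544 and 1350 under alpha3 siRNA. The alpha3 siRNA arrays themselves differed by 1.26 on the log2 scale and 1 of them lay within the mock range. Its other probe set was at 603 and 557 in mock, 352 and 387 under MT1-MMP siRNA, and 517 and 683 under alpha3 siRNA. The probe sets had log2 fold changes of -0.67 and -0.61 under MT1-MMP siRNA, and of -0.49 and 0.03 under alpha3 siRNA. Between the siRNAs they had -0.18 and -0.64. The dimmer probe set had an unadjusted p of 0.0175 in limma under MT1-MMP siRNA against mock (adjusted p = 0.262).

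Zyxin (ZYX), which marks tension-bearing adhesions, was at 1111 and 1241 in mock, 981 and 878 under MT1-MMP siRNA, and 1061 and 1145 under alpha3 siRNA. The MT1-MMP siRNA pair lay lowest, by -0.33 (adjusted p = 0.430), and the other probe set gave -0.28. Vinculin (VCL) had -0.29 under MT1-MMP siRNA and -0.25 under alpha3 siRNA, with intervals from -0.77 to 0.19 and from -0.73 to 0.24. Talin 1 (TLN1), which binds the integrin tail directly, was at 172 and 308 in mock, and the 4 siRNA arrays lay between those values, from 240 to 306.

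Caveolin 1 (CAV1), the coat protein of caveolae, was, with TLN1, on the higher side under MT1-MMP siRNA. It had 3288 and 3411 in mock, 4199 and 4220 under MT1-MMP siRNA, and 2649 and 3029 under alpha3 siRNA, so that the 3 pairs did not overlap. The difference between the siRNAs was 0.57 (SE 0.15, adjusted p = 0.0894), made of 0.33 above mock and -0.24 below it. The other CAV1 probe set gave 0.28 and -0.04 against mock.

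In the ILK complex, which ties integrin tails to actin, integrin-linked kinase (ILK) was at 1164 and 873 in mock, 1268 and 1441 under MT1-MMP siRNA, and 1050 and 1119 under alpha3 siRNA. The MT1-MMP siRNA pair lay highest, at a log2 fold change of 0.41 against mock (adjusted p = 0.383). Alpha-parvin (PARVA), the actin-binding partner of ILK, was at 47.8 and 237 in mock, 296 and 209 under MT1-MMP siRNA, and 280 and 250 under alpha3 siRNA. Only mock replicate 1 stood apart, and the log2 fold change under alpha3 siRNA was 1.02 with all arrays (adjusted p = 0.855), 0.14 without mock replicate 1 and 1.89 without mock replicate 2. On its other probe set the mock arrays were at 85.4 and 71.4, the alpha3 siRNA arrays at 85.5 and 127, and the MT1-MMP siRNA arrays at 186 and 110, so mock replicate 1 was not low there.

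FAK (PTK2), the kinase that integrin clustering activates, was at 529 and 770 in mock, 798 and 499 under MT1-MMP siRNA, and 416 and 411 under alpha3 siRNA. Both alpha3 siRNA arrays lay below the other 4. The log2 fold change against mock was -0.59 (SE 0.27, adjusted p = 0.855), -0.33 without mock replicate 2, and -0.23 on the other probe set. The MT1-MMP siRNA arrays were above the alpha3 siRNA arrays by 0.58, with an interval from -0.04 to 1.19.

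Of the alpha-actinins, which bundle actin filaments, ACTN4 was at 2083 and 2463 in mock, 2693 and 2365 under MT1-MMP siRNA, and 1788 and 1693 under alpha3 siRNA. The alpha3 siRNA pair was lowest, at -0.37 against mock (adjusted p = 0.855) and with a difference of 0.53 between the siRNAs (SE 0.17, adjusted p = 0.125). ACTN1 was between 2416 and 2760 on all 6 arrays, and its difference between the siRNAs was -0.0047, with an interval from -0.36 to 0.35. The 3 probe sets of ACTN1 lay between -0.39 and -0.12 under MT1-MMP siRNA and between -0.15 and -0.03 under alpha3 siRNA.

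RHOA, which drives myosin contraction, had 4453 and 4281 in mock, 5905 and 5575 under MT1-MMP siRNA, and 4044 and 4507 under alpha3 siRNA. The MT1-MMP siRNA pair was above all others, and mock and alpha3 siRNA overlapped. The log2 fold change was 0.39 against mock (SE 0.15, adjusted p = 0.288) and 0.42 against alpha3 siRNA (adjusted p = 0.140), and leaving out 1 array at a time kept the first between 0.35 and 0.43. With quantile normalization they were 0.24 (adjusted p = 0.446) and 0.27 (adjusted p = 0.265).

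RAC1 was between 4306 and 5161 on all arrays, with log2 fold changes of -0.08 and 0.01 against mock and intervals within -0.43 and 0.36. The other RAC1 probe set gave -0.26 under MT1-MMP siRNA and 0.03 under alpha3 siRNA. RHOB, an inducible relative of RHOA, was at 512 and 727 in mock, 966 and 628 under MT1-MMP siRNA, and 728 and 796 under alpha3 siRNA. Its log2 fold changes were 0.34 and 0.30, and the MT1-MMP siRNA pair overlapped both other pairs.

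CDC42, which drives filopodia, gave a different sign on different probe sets under alpha3 siRNA. The brightest was at 1276 and 1119 in mock, 1120 and 1475 under MT1-MMP siRNA, and 1492 and 1653 under alpha3 siRNA, a log2 fold change of 0.39 under alpha3 siRNA (adjusted p = 0.863). The dimmest above the filter was at 125 and 112 in mock and 23.4 and 115 under alpha3 siRNA, a log2 fold change of -0.74. The one between them gave -0.02, so no direction can be given for CDC42 under alpha3 siRNA from these probe sets. Under MT1-MMP siRNA all of them lay above mock, from 0.06 to 0.18, and each interval also reached below mock.

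ROCK1, a kinase that RhoA activates, was at 713 and 690 in mock, 823 and 779 under MT1-MMP siRNA, and 524 and 665 under alpha3 siRNA. These pairs did not overlap, but the other probe set of ROCK1 was lower with either siRNA, by -0.38 and -0.29. ROCK2 was between 181 and 234 on all arrays on its brightest probe set, and its other one gave -0.46 under MT1-MMP siRNA and 0.01 under alpha3 siRNA. DIAPH1, the formin that RhoA activates, was at 852 and 739 in mock, 449 and 755 under MT1-MMP siRNA, and 578 and 823 under alpha3 siRNA. The value of -0.42 under MT1-MMP siRNA (adjusted p = 0.516) was -0.07 without replicate 1 of that group and -0.20 for the mean of its probe sets. The other 2 probe sets of DIAPH1 gave -0.10 and -0.07. Under alpha3 siRNA against mock the brightest gave -0.19, while the other 2 gave 0.25 and 0.43.

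Cortactin (CTTN), which stabilises branched actin and is found in invadopodia, the matrix-degrading protrusions that carry MT1-MMP, was lower under alpha3 siRNA on each of its probe sets above the filter. The brightest was at 724 and 709 in mock, 641 and 740 under MT1-MMP siRNA, and 427 and 524 under alpha3 siRNA. A further probe set was at 169 and 456 in mock, 460 and 382 under MT1-MMP siRNA, and 117 and 151 under alpha3 siRNA, and the remaining one at 171 and 262, 227 and 303, and 149 and 181. In each of the 3, both alpha3 siRNA arrays lay below both MT1-MMP siRNA arrays. The brightest had a log2 fold change of -0.57 against mock (SE 0.19, interval from -1.01 to -0.12, adjusted p = 0.851), and the others had -0.93 and -0.32. The difference between the siRNAs was 0.51 (adjusted p = 0.164), 1.45 and 0.59 on the same probe sets.

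The other genes of actin dynamics had log2 fold changes between -0.05 and 0.36 against mock. Profilin 1 (PFN1), which delivers actin monomers to growing filaments, was between 5937 and 6231 on the 6 arrays, with log2 fold changes of 0.06 and 0.05 against mock and intervals from -0.25 to 0.37 and from -0.26 to 0.36. Cofilin 1 (CFL1), which severs filaments, was between 10943 and 12862 on 5 arrays and at 17658 on MT1-MMP siRNA replicate 1. VASP, a filament elongator, was at 261 and 500 within the MT1-MMP siRNA pair, which enclosed the other 4 arrays.

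The ERM proteins link actin to the plasma membrane, and each of the 3 genes had its own pattern of signals. Ezrin (EZR) was at 632 and 783 in mock, 556 and 565 under MT1-MMP siRNA, and 754 and 1427 under alpha3 siRNA. The MT1-MMP siRNA pair was below all others, and alpha3 siRNA replicate 2 was highest. The difference between the siRNAs was -0.85 (SE 0.29, adjusted p = 0.132) and -0.41 without that array. All 4 probe sets above the filter had the same signs, from -1.02 to -0.50 between the siRNAs, from -0.66 to -0.01 under MT1-MMP siRNA and from 0.22 to 0.63 under alpha3 siRNA. Alpha3 siRNA replicate 2 was highest on each of them. On a dimmer probe set, alpha3 siRNA replicate 1 was at 615, below 651 and 872 in mock. On another dimmer one it was at 606, below 700 and 721.

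Moesin (MSN) was at 2394 and 3034 in mock, 2416 and 2729 under MT1-MMP siRNA, and 2518 and 41.7 under alpha3 siRNA. The first 5 values lay close together, and alpha3 siRNA replicate 2 was 5.11 below replicate 1 on the log2 scale, the widest gap of any member within a pair. MSN has 1 probe set on this array, so no other probe set can be set beside that value. The log2 fold change under alpha3 siRNA was -2.65 with all arrays (SE 1.27, adjusted p = 0.855), -5.21 without replicate 1 and -0.10 without replicate 2. Radixin (RDX) was between 1180 and 1297 on all 6 arrays on its brightest probe set. The intervals there ran from -0.42 to 0.34 under MT1-MMP siRNA and from -0.46 to 0.31 under alpha3 siRNA. Its other probe sets gave -0.30 and -0.13 under MT1-MMP siRNA, and 0.03 and 0.26 under alpha3 siRNA.

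**Figure D2:**
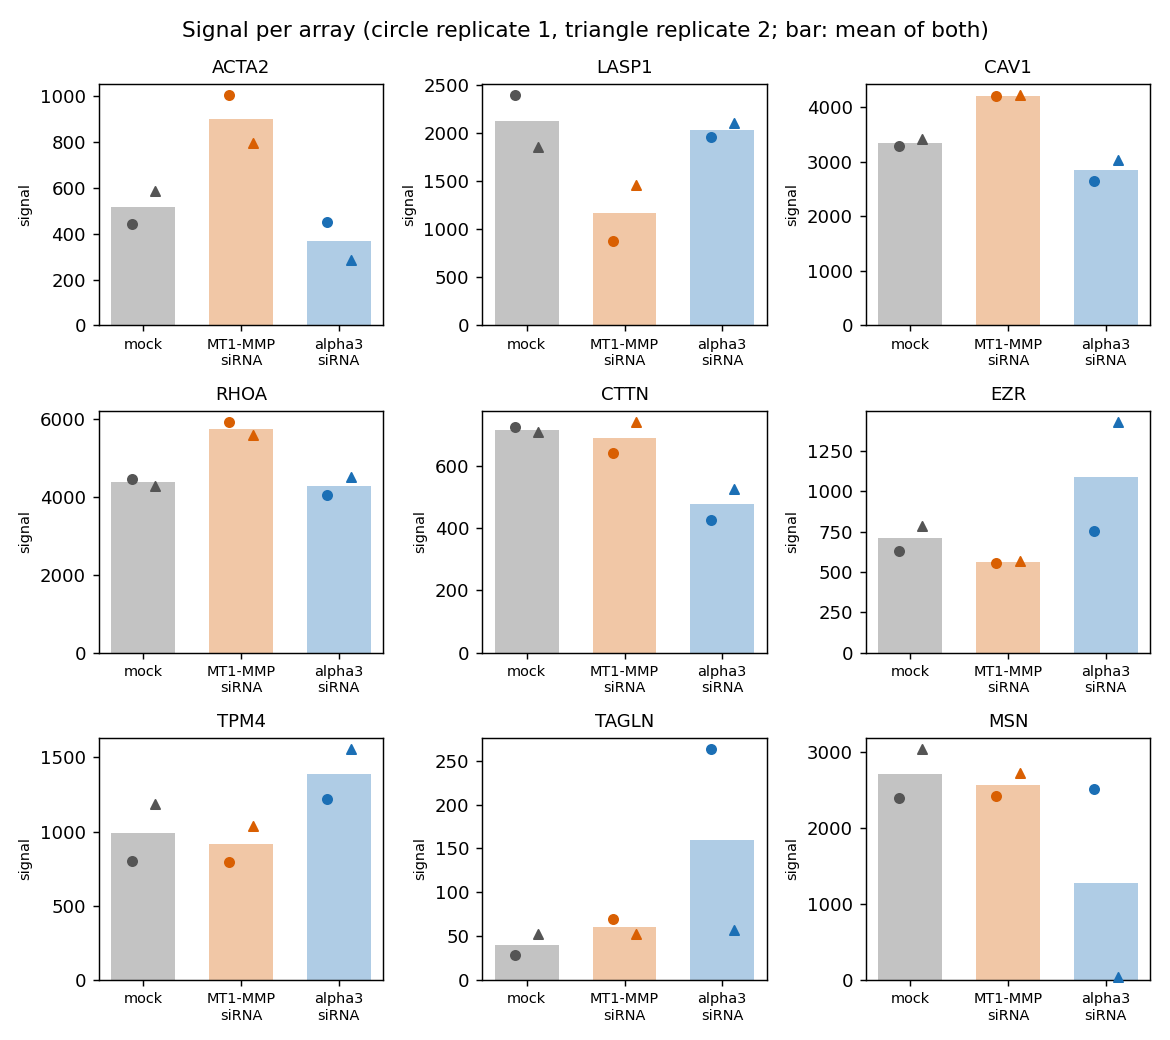
Signal per array (y axis, linear scale from 0 in each panel) of 9 genes in the 3 groups (x axis); bars are the mean of both arrays, circles replicate 1 and triangles replicate 2. ACTA2 and RHOA were highest on both MT1-MMP siRNA arrays, CTTN was lowest on both alpha3 siRNA arrays, and MSN was at 41.7 on alpha3 siRNA replicate 2 against 2394 or more on the other arrays.

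Among the contractile and thin filament genes, the differences between the siRNAs ran from -0.81 for TAGLN to 1.24 for ACTA2, and that of TAGLN was 0.05 without alpha3 siRNA replicate 1. Of the 10 measured, 6 were above mock under MT1-MMP siRNA and 7 under alpha3 siRNA, with medians of 0.06 and 0.32, beside 50.3% and 48% of all genes above 0. Leaving out mock replicate 1 turned the first count to 4, and leaving out mock replicate 2 turned it to 9. The second median was 0.11 without mock replicate 1, 0.18 without alpha3 siRNA replicate 1 and 0.39 without mock replicate 2. Between the siRNAs 8 of the 10 were lower under MT1-MMP siRNA, beside 48.1% of all genes, and 5 of the 10 without alpha3 siRNA replicate 1, where TAGLN and MYL9 turned to 0.05 and 0.33. ACTA2, the smooth muscle actin whose promoter is given above, was at 443 and 587 in mock, 1003 and 795 under MT1-MMP siRNA, and 448 and 287 under alpha3 siRNA. Both MT1-MMP siRNA arrays were above the other 4, and mock and alpha3 siRNA overlapped. The log2 fold change was 0.77 against mock (SE 0.26, interval from 0.18 to 1.36, adjusted p = 0.252) and 1.24 against alpha3 siRNA (SE 0.26, interval from 0.65 to 1.83, adjusted p = 0.0543). Leaving out 1 array at a time, the second stayed between 0.95 and 1.53, with an adjusted p of 0.312 without MT1-MMP siRNA replicate 1, and with a filter at the 60th percentile of signal it passed the threshold, at an adjusted p of 0.0477 over 5629 genes, the lowest over its alternatives. Actins are closely similar in sequence, so signal from another actin cannot be told apart on this probe set. The second ACTA2 probe set was below the filter, between 10.1 and 54.7.

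Transgelin (TAGLN), a small actin-binding protein of smooth muscle and an SRF target, was dim, at 28.6 and 51.9 in mock, 68.8 and 52.7 under MT1-MMP siRNA, and 263 and 57.3 under alpha3 siRNA. Only alpha3 siRNA replicate 1 stood apart, and the log2 fold change of 1.19 (SE 0.49, adjusted p = 0.855) was 0.32 without it. The myosin light chain MYL9 was highest on the same array, at 722, with 168 on the other alpha3 siRNA array, 124 and 356 in mock, and 198 and 244 under MT1-MMP siRNA. The N-cadherin gene CDH2, from the mesenchymal list, was also highest there, at 1116 beside 291 to 536 on the other 5. No other gene of the mesenchymal list was highest on that array, and VIM and COL6A3 were lowest on it, at 12271 and 3801. Of the smooth muscle and pericyte list, SMTN was between 581 and 947, while MYH11, LMOD1 and DES did not exceed 28.5 on any array. The summed signal of that list was 968 and 1149 in mock, 915 and 915 under MT1-MMP siRNA, and between 906 and 1238 under alpha3 siRNA.

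The tropomyosins, which coat actin filaments, lay above mock under alpha3 siRNA on 8 of 8 probe sets of TPM1, TPM2 and TPM4, from 0.25 to 0.89, where 48.4% of all probe sets were above 0, and on 7 of 8 without mock replicate 1, from -0.11 to 0.47. Under MT1-MMP siRNA 3 of the 8 were above 0. This family was singled out after its values were seen. TPM1 was at 1438 and 3259 in mock, 2111 and 1666 under MT1-MMP siRNA, and 3670 and 2464 under alpha3 siRNA, so the alpha3 siRNA and mock pairs overlapped and the mock pair itself was 1.16 apart on the log2 scale. TPM4 was at 801 and 1186 in mock, 794 and 1035 under MT1-MMP siRNA, and 1221 and 1554 under alpha3 siRNA. The alpha3 siRNA pair was highest, by 0.49 over mock (adjusted p = 0.863), and MT1-MMP siRNA was lower than alpha3 siRNA by -0.59 (SE 0.25, adjusted p = 0.201) and by -0.51 on the other probe set. TPM2 was at 961 and 897 in mock, 1181 and 1441 under MT1-MMP siRNA, and 1290 and 1050 under alpha3 siRNA. All 4 siRNA arrays were above mock, with log2 fold changes of 0.48 (SE 0.20, adjusted p = 0.315) and 0.32, while the dimmer TPM2 probe set gave -0.01 and 0.25.

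For the remaining contractile genes, log2 fold changes against mock lay between -0.25 and 0.33. MYH9, the heavy chain of non-muscle myosin, was between 1089 and 1491 on all arrays and highest under alpha3 siRNA, at 0.29 over mock (adjusted p = 0.881). The calponin CNN3 was highest under alpha3 siRNA too, at 2554 and 2165 beside 1740 and 2001 in mock and 2003 and 1992 under MT1-MMP siRNA, which put it 0.33 above mock on the log2 scale. CNN2 was between 558 and 656 on all arrays. Caldesmon (CALD1), a brake on actomyosin, was lower under MT1-MMP siRNA on each of its 5 probe sets above the filter, from -0.46 to -0.10. Its brightest was at 606 and 875 in mock, 596 and 622 under MT1-MMP siRNA, and 671 and 766 under alpha3 siRNA. Without mock replicate 2, the log2 fold change of the brightest under MT1-MMP siRNA was 0.005.

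**Figure D3:**
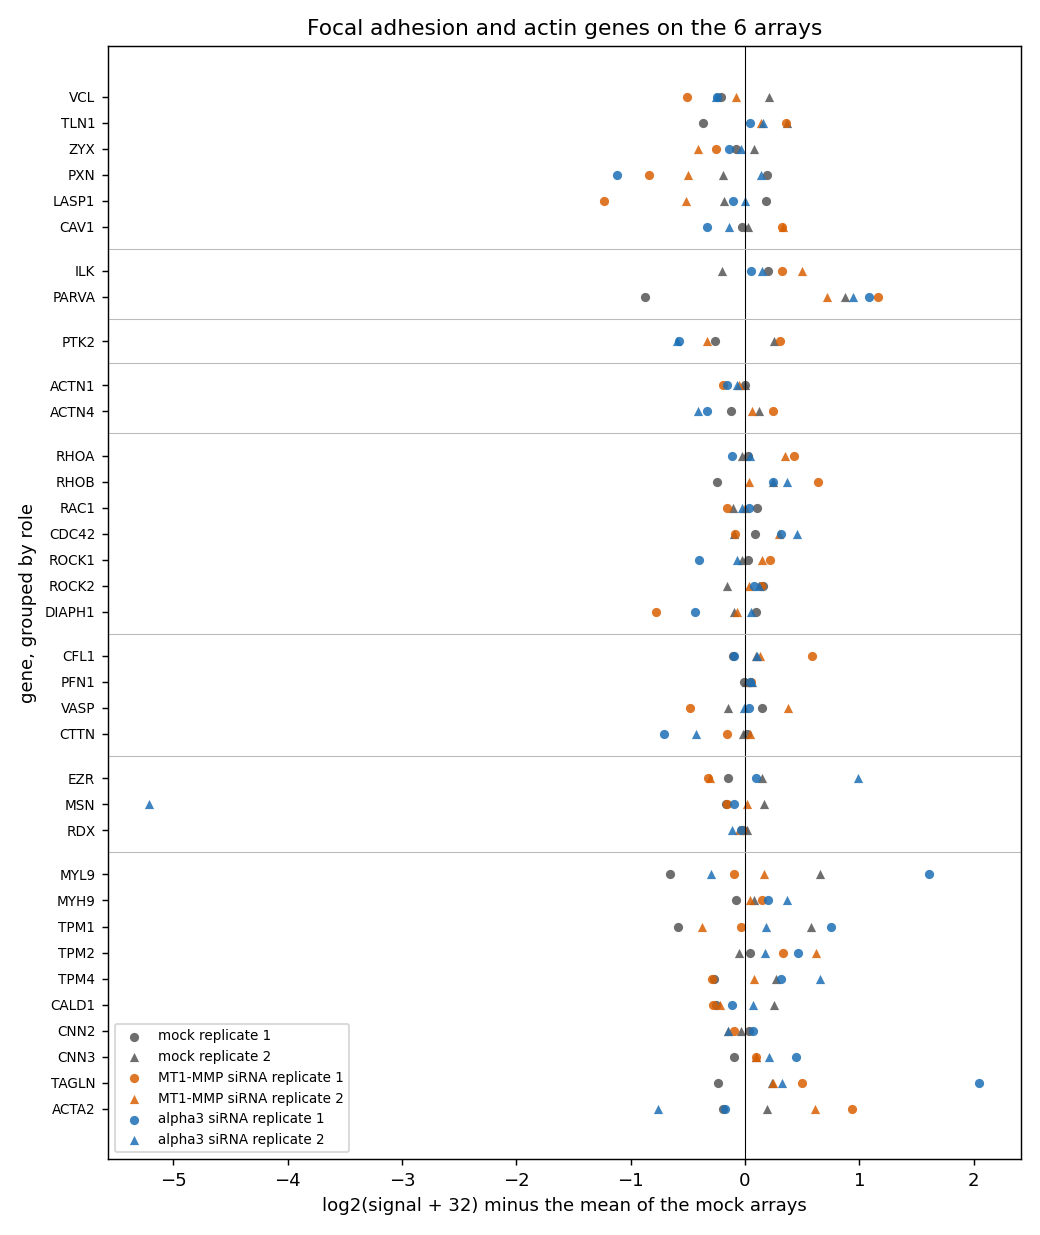
Each gene's value on each array (x axis, log2(signal + 32) minus the mean of the mock arrays; circles replicate 1, triangles replicate 2) for the 35 genes (y axis, grouped by role). MSN on alpha3 siRNA replicate 2 lies far to the left, TAGLN and MYL9 on alpha3 siRNA replicate 1 to the right, and PARVA on mock replicate 1 lies left of its other arrays.

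Within a pair of arrays, members differed by a median of 0.30 on the log2 scale in mock, 0.20 under MT1-MMP siRNA and 0.16 under alpha3 siRNA, beside 0.22, 0.23 and 0.27 over all genes. The median size of a log2 fold change among the members was 0.21 under MT1-MMP siRNA and 0.25 under alpha3 siRNA, beside 0.24 and 0.18 over all genes. A fold change compares means of 2 arrays and a gap compares single arrays, so the 2 sizes are not directly comparable. Beyond 0.5 in size were 11.4% of members under MT1-MMP siRNA and 20% under alpha3 siRNA, beside 18.5% and 10.1% of all genes. Under alpha3 siRNA these include MSN, PARVA and TAGLN, each set by 1 array. They also include EZR (754 and 1427, beside 632 and 783 in mock) and MYL9 (722 and 168, beside 124 and 356 in mock). In EZR and in MYL9, 1 of the alpha3 siRNA arrays lay within the mock range. In PTK2 and CTTN, the rest of them, both alpha3 siRNA arrays lay below both mock arrays. Gaps over 1 within a pair were found for 3 members in mock (PARVA, MYL9 and TPM1), 0 under MT1-MMP siRNA and 4 under alpha3 siRNA (MSN, MYL9, TAGLN and PXN). MYL9, TPM1 and TAGLN were lower on mock replicate 1 than on mock replicate 2, and higher on alpha3 siRNA replicate 1 than on replicate 2.

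Probe sets of 1 gene could be compared for 18 members. All probe sets of a gene had the same sign for 12 of the 18 under MT1-MMP siRNA against mock, for 13 under alpha3 siRNA against mock and for 13 between the siRNAs. Only CDC42 under alpha3 siRNA had probe sets beyond 0.3 on both sides of 0. In the fit of every probe set on its own, 0 of the 65 member probe sets passed the threshold in any comparison, beside 0.0169% of all probe sets in MT1-MMP siRNA against mock, 0.00845% in alpha3 siRNA against mock and 1.37% between the siRNAs. At an unadjusted p under 0.05 there were 6 under MT1-MMP siRNA (9.23%, beside 14.1% of all probe sets), 6 under alpha3 siRNA (9.23%, beside 5.36%) and 17 between the siRNAs (26.2%, beside 22.6%). The last count included all 3 of CTTN, 3 of the 4 of EZR, both of TPM4 and 2 of the 4 of TPM1.

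**Figure D4:**
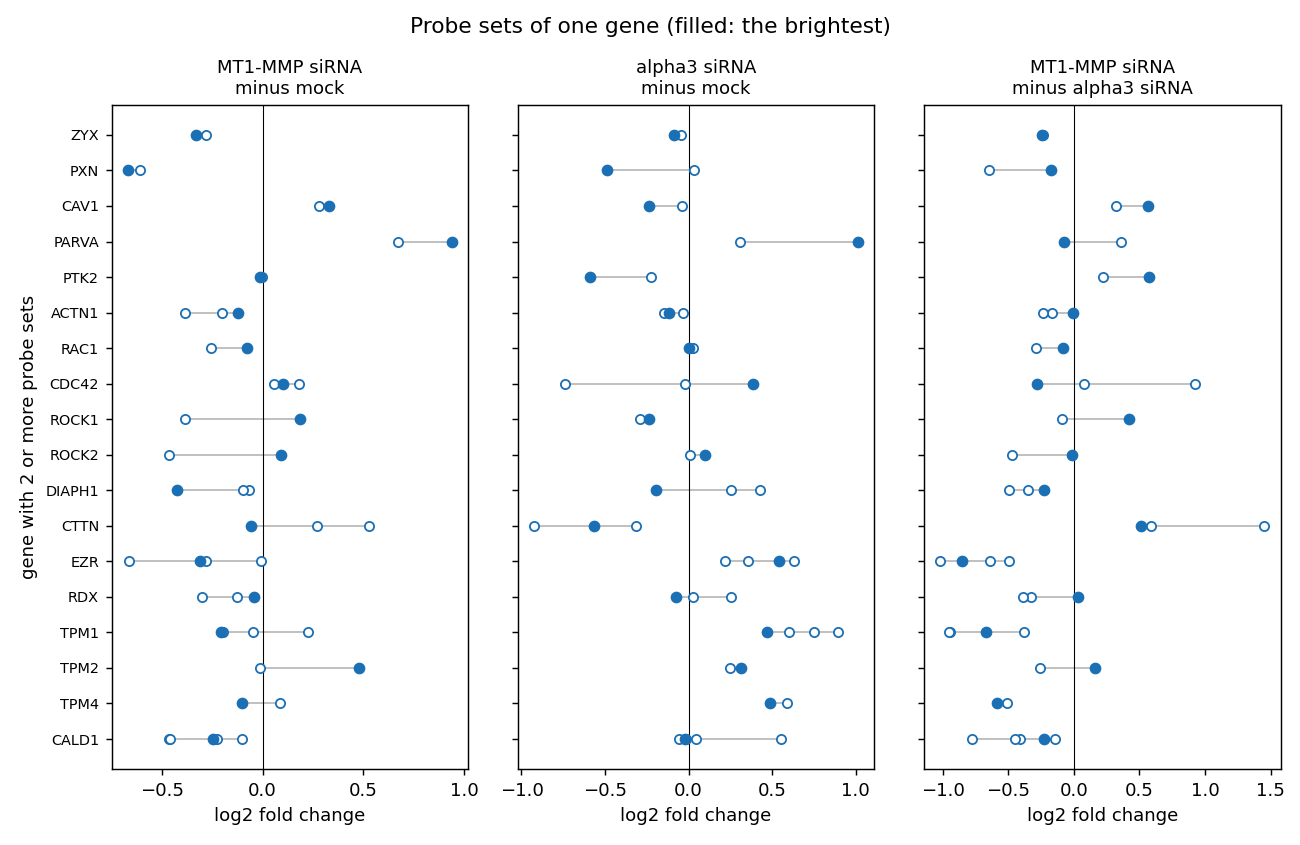
Log2 fold change (x axis, scaled separately per panel) of every probe set above the filter for the 18 genes with 2 or more (y axis); filled points are the brightest probe set and lines join probe sets of a gene. Those of CTTN, EZR and TPM4 keep to 1 side of 0 between the siRNAs, and those of CDC42 lie on both sides under alpha3 siRNA.

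Further genes of adhesion, actin and contractility were listed beside the members. Of 86 listed genes 72 were tested, and 0 passed the threshold in any of the 3 comparisons in limma. At an unadjusted p under 0.05 there were 9 under MT1-MMP siRNA (7 higher, 2 lower), 6 under alpha3 siRNA (3 higher, 3 lower) and 14 between the siRNAs (9 higher under MT1-MMP siRNA, 5 lower), beside 14.4%, 5.73% and 23.4% of all genes. Their medians were 0.01, -0.02 and 0.10. By list, the counts between the siRNAs were 2 of 26 for adhesion genes and 8 of 27 for actin genes.

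In this list, 4 genes had separated groups at an unadjusted p under 0.01 in limma, and 0 passed. All 4 were higher under MT1-MMP siRNA than under alpha3 siRNA. The share of all genes that meet both conditions was not counted. Between the siRNAs, 53.9% of all genes had separated groups and 23.4% had an unadjusted p under 0.05. MYLK, the kinase that activates smooth muscle and non-muscle myosin, was at 385 and 522 in mock, 946 and 928 under MT1-MMP siRNA, and 509 and 268 under alpha3 siRNA (1.27 between the siRNAs, adjusted p = 0.0638, and 1.01 over mock, adjusted p = 0.210). The myosin regulatory light chain MYL12A was at 663 and 591, 823 and 958, and 440 and 510 in the same order of groups (0.86 between the siRNAs, adjusted p = 0.0607). Destrin (DSTN), a relative of cofilin, was at 2774 and 4178, 3999 and 3970, and 1801 and 2325 (0.95, adjusted p = 0.0681). The probe set named TMSB4X, a thymosin that holds actin monomers, was at 83.2 and 252, 261 and 195, and 76.6 and 53.2 (1.42, adjusted p = 0.0901), and it cannot be given to 1 gene with certainty because TMSB4X has closely similar copies.

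Marker lists of other cell types were summed on the same arrays, without a test. The summed signal of the 9 mesenchymal markers was 23723 and 29222 in mock, 37447 and 46782 under MT1-MMP siRNA, and 23745 and 27320 under alpha3 siRNA, with the MT1-MMP siRNA pair highest. That of the 8 epithelial markers, nearly all from KRT8 and KRT18, was 3053 and 3299 in mock, between 2310 and 2744 under MT1-MMP siRNA, and between 4244 and 4655 under alpha3 siRNA. The 6 endothelial markers summed to between 221 and 910, the 4 leukocyte markers with a probe set to between 118 and 161, and the 2 erythroid ones to between 95.9 and 164. The part of these markers in the values of the adhesion and actin genes was not tested.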

How the data were processed

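The authors deposited 1 intensity per probe set and array on a linear scale, already scaled to a common level (a mean of 250.1 over the middle 96% of values, on each of the arrays). For software, background method and genome build, nothing is given in the sources used here. The platform annotation supplied the names; 19065 probe sets had 1 gene symbol once the 68 array controls were left out. A floor of 1 was applied, then log2(value + 32). Probe sets above the 40th percentile of mean log2 value (6.31) were kept, and the brightest probe set stood for a gene. All 6 arrays entered 1 limma fit (limma 3.58.1, R 4.3.3) with a mean per group (eBayes with an intensity trend, 3 residual and 5.35 prior degrees of freedom), with Benjamini-Hochberg adjustment over 8045 genes, or 11828 probe sets where each was fitted on its own. The procedure was tested on simulated data. With 2 arrays a group, an exact permutation test cannot approach the threshold, so only limma was used, and the number of arrays limits the precision.

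The members and lists were chosen with earlier results of these data known. Values on every array are given for members with an unadjusted p under 0.05 in any comparison, for the largest change against mock in each role, for members whose probe sets split beyond 0.3 in sign, and for pathway genes with separated groups at an unadjusted p under 0.01; others named were chosen after their values were seen. Same-numbered arrays did not deviate together (correlation across genes of -0.176 and -0.175 between mock and the siRNA groups, 0.127 between the siRNAs), so the replicate number was used as a block only as an alternative. Promoter windows are RefSeq's on GRCh38.p14. Figures were drawn with matplotlib 3.10.9. The count of 1 further gene list and 1 group summary are not reported here.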

Additional observations from a re-analysis of the deposited data

How the results depend on the processing

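None of the 20 log2 fold changes followed passed the threshold in the main fit. Settings such as leaving out the trend, or an array of the third group, cannot change a log2 fold change. A value that shrank without changing sign counts as kept, such as MSN with alpha3 siRNA, from -2.65 to -0.10 without replicate 2. With these limits, and without the pairing of unlike numbers below, 316 of 319 recomputed values kept their direction and their side of the threshold. Of the others, CDC42 with alpha3 siRNA turned to -0.12 with the mean of its probe sets, ACTA2 between the siRNAs passed with a filter at the 60th percentile, where fewer genes are tested, and MSN with alpha3 siRNA passed without replicate 1 of that group.

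With MT1-MMP siRNA against mock, members at an unadjusted p under 0.05 numbered 4, and 2 without the trend and 2 with the replicate block. Their median of 0.03 was -0.051 over every probe set. With alpha3 siRNA against mock they numbered 2, and 1 with a filter at the 60th percentile, 6 over every probe set (of 65) and 5 with the replicate block. Between the siRNAs they numbered 8, and 17 over every probe set, where the median was -0.18, and 1 member passed the adjusted threshold with the filter at the 60th percentile. The replicate block changed no call of a member at the adjusted threshold. Pairing unlike numbers, chosen after seeing the data, gave 3 called members (LASP1, ACTA2 and PXN) for MT1-MMP siRNA against mock. At an unadjusted p under 0.05 there were 10 members, beside 23.2% of all genes, and 478 of 8045 genes were called. For alpha3 siRNA against mock, the same kind of pairing gave 0 called members and 9 at that p (26 genes called and 8.13%).

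Leaving out 1 array at a time gave 0 called members with MT1-MMP siRNA against mock and 0 to 1 in the other comparisons. At an unadjusted p under 0.05 it gave 1 to 5, 1 to 4 and 3 to 9 members. The medians ranged from -0.025 to 0.16, from -0.06 to 0.05 and from -0.06 to 0.01. Over all genes, the number called between the siRNAs was 112, and 69 with an offset of 1, 22 without a filter, 178 with the filter at the 60th percentile, 72 without the trend 0 without either MT1-MMP siRNA array, and 6 to 83 without 1 of the other arrays.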
